A study of Mus musculus with 170 samples.

Results

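The core splicing factors examined here were the 66 genes, of 40549 rows in the table, whose symbols place them in 5 families. These were 14 Lsm, 9 Sf3, 12 Snrp, 11 Srsf and 20 Hnrnp genes, and 2 rows whose symbols hold -ps (pseudogenes) were left out. They were measured in single ventricle cells, taken by hand at E9.5 from hearts of C57BL/6 mice and sequenced after Smart-seq2 amplification. Control embryos, labelled wild type, were Dgcr8 loxP/loxP; Rosa26 mT/mG/+ without Cre. The cKO embryos, labelled Mesp1Cre/+; Dgcr8-/-, carried the same floxed Dgcr8 alleles and Rosa26 mT/mG/+ membrane reporter together with Mesp1 Cre/+. Cre was driven by Mesp1, which is active in early mesoderm that gives rise to heart muscle and to other cardiac lineages. DGCR8 binds RNA together with the nuclease Drosha, and both proteins are needed to cut hairpins out of primary microRNA transcripts.

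Splicing is carried out by the spliceosome, which is built on each intron from small nuclear ribonucleoproteins (snRNPs), particles of a short RNA and proteins. The Snrp genes encode mainly the Sm proteins, which form a ring around the U1, U2, U4 and U5 RNAs, and proteins particular to U1 or U2. Lsm2 to Lsm8 form the like-shaped ring on U6 RNA, whereas Lsm1 replaces Lsm8 in a cytoplasmic ring that takes part in mRNA decay, and Lsm10 and Lsm11 belong to the U7 particle that processes histone transcripts. The Sf3 genes encode the SF3A and SF3B complexes of U2, which hold it at the branch site. Srsf genes encode SR proteins, which bind exons and mostly promote their inclusion, and Hnrnp genes encode abundant nuclear RNA-binding proteins that often act against inclusion. Lsm12, Lsm14a and Lsm14b have Sm-like domains but are not part of the spliceosome. Lsmem1, a membrane protein gene, met the rule by its letters alone.

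The table held 74 control cells and 69 cKO cells from 2 sequencing batches. The labels name no embryo, so each genotype was taken as 1 sample, every comparison describes these cells without a test, and each SD is the scatter across cells. By their markers 96 cells were cardiomyocyte-like (CM-like), namely 19 control and 33 cKO cells of batch 1 and 10 control and 34 cKO cells of batch 2. The CM-like cells had a mean log2(TPM + 1) over 15 cardiomyocyte markers of 9.04 to 10.9 in control and 8.79 to 11.2 in cKO. Of the markers of other classes, 2 of 13 endothelial, 1 of 14 mesenchymal, 1 of 6 epicardial and 0 of 7 erythroid genes were detected in most of these cells in either genotype. The mean log2(TPM + 1) over a cell's endothelial markers was 0.17 to 2.19 in control and 0.15 to 1.73 in cKO cells, and over the mesenchymal markers 0.10 to 1.96 and 0.17 to 1.83. For the epicardial markers it was 0.06 to 5.00 in control and 0 to 2.98 in cKO cells, and for the erythroid markers 0 to 8.32 and 0 to 3.18. The high values came from 3 control cells of batch 2, with an epicardial mean of 5.00 and erythroid means of 7.90 and 8.32, and the main counts and medians are also given without them, a choice made after the values were seen. The remaining control cells comprised 22 endothelial-like, 13 epicardial-mesenchymal-like and 3 erythroid-like cells, and 9 cells led by mitochondrial transcripts (7 control and 2 cKO) stayed unnamed. TPM, the transcript abundance per length scaled to a fixed total, keeps no record of depth, so the number of detected genes stood in for it. The median of detected genes was 8458 in control and 9845 in cKO CM-like cells of batch 1, but 9679 and 7765 in batch 2. The genotypes were thus ordered oppositely in the 2 batches, and the part of this in the differences below was not tested. Dgcr8 had a mean log2(TPM + 1) of 2.61 ± 2.91 (SD, n = 29 cells) in control and 1.66 ± 2.46 (SD, n = 67 cells) in cKO CM-like cells, a difference of -0.20 in batch 1 and -1.72 in batch 2. Xist reached a TPM of 1 in 0 of 29 control and 64 of 67 cKO CM-like cells, and Y-linked Ddx3y in 19 of 29 and 0 of 67, so embryo sex and genotype cannot be told apart. Likewise, fewer transcripts of a gene and fewer sampled molecules per cell cannot be told apart in TPM.

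In CM-like cells the members with the lowest differences between cKO and control encoded small ring proteins of the snRNPs. The Lsm6, Lsm7 and Lsm5 genes stood lowest within the Lsm family, and Snrpb and Snrpd1 within the Snrp family. Of the large U2 proteins, Sf3b1 was higher in cKO in both batches. The 250 bases upstream of the start sites of Lsm5, Lsm6 and Lsm7 are shown beside those of Sf3b1, as the 3 lowest Lsm members and a contrary one. They are given 5' to 3' on the gene's strand, from RefSeq (GRCm38.p6, the build mm10). Capitals mark CCAAT (or ATTGG), the box bound by NF-Y, and CTTCCG (or CGGAAG), a core bound by ETS factors.
Lsm5, chr6:56704700-56704949, minus strand: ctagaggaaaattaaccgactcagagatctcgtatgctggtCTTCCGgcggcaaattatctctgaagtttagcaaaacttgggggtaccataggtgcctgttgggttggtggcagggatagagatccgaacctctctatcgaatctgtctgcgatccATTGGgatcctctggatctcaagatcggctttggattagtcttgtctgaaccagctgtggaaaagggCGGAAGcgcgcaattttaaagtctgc
Lsm6, chr8:78821153-78821402, minus strand: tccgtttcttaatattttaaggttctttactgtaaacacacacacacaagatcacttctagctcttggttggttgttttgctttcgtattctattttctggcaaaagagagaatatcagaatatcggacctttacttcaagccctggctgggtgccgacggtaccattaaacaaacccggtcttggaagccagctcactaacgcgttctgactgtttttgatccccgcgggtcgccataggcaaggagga
Lsm7, chr10:80855210-80855459, minus strand: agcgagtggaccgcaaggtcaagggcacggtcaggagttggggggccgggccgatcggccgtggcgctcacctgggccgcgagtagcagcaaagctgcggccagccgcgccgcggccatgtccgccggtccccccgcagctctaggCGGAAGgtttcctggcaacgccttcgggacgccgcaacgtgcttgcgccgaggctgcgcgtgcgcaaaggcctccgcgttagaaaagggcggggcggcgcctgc
Sf3b1, chr1:55027479-55027728, minus strand: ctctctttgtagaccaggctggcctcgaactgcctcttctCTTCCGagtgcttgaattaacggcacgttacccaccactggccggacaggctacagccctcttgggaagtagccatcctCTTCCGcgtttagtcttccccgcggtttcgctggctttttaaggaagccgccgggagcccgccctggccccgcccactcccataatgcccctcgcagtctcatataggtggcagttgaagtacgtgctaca

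The 3 Lsm sequences had little in common by these letters. Lsm5 held 1 CCAAT and 2 CTTCCG matches, Lsm7, shown at the more upstream of its 2 listed starts, held 1 CTTCCG match, and Lsm6 held neither. Sf3b1 held 2 CTTCCG matches. Promoter windows from 250 bases before to 50 bases after the start were listed for 57 of the 66 members, 76 windows in all. In these longer windows Lsm6 held 1 CCAAT match and Lsm5 held 3 CTTCCG matches, so the counts depend on the window. On either strand, CTTCCG was present in 47.4% of these windows against 16.9% of all 32851 windows of the same length, and GGGCGG, the core bound by Sp1-like factors, in 71.1% against 35.7%. The comparison windows came from 27025 genes and were not limited to genes detected in these cells, whereas all 66 members were detected. The shares of CCAAT were 44.7% and 37.4%, those of CACGTG (the E-box) 9.21% and 7.15%, and those of TATAAA 9.21% and 13.6%. No 2 of these motifs contain each other. By family, CTTCCG was found in 8 of 8 Sf3 windows, 7 of 14 Snrp, 7 of 14 Srsf, 5 of 13 Lsm and 9 of 27 Hnrnp windows. The members lower in both batches had 20 windows, from 17 genes, since none was listed for Snrpb, Snrpd1 and Lsm1. Of these windows 60% held CTTCCG, 60% CCAAT, 70% GGGCGG, 10% TATAAA and 0% CACGTG. These matches describe letters only, and windows of 1 gene can overlap.

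The order of levels within the families, on the TPM scale that allows for length, was led by Hnrnpk, whose product binds poly(C) stretches. Its TPM ran from 36.5 to 1679 in control CM-like cells with a median of 1089, and from 4.59 to 2214 in cKO with a median of 877. Snrpe, a subunit of the Sm ring, followed with medians of 911.3 and 614.8 TPM. The ranges of these 2 genes overlapped in each genotype. At the other end were Snrpn, the imprinted and mainly neuronal paralog of Snrpb, Lsm11 and Srsf12, all with a mean log2(TPM + 1) below 1 in both genotypes. Snrpn and Snrpb encode closely similar proteins, so reads could be divided between them by the quantification. All 66 members had TPM above 0 in more than 10 CM-like cells, the filter that left 15150 genes.

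**Figure D1:**
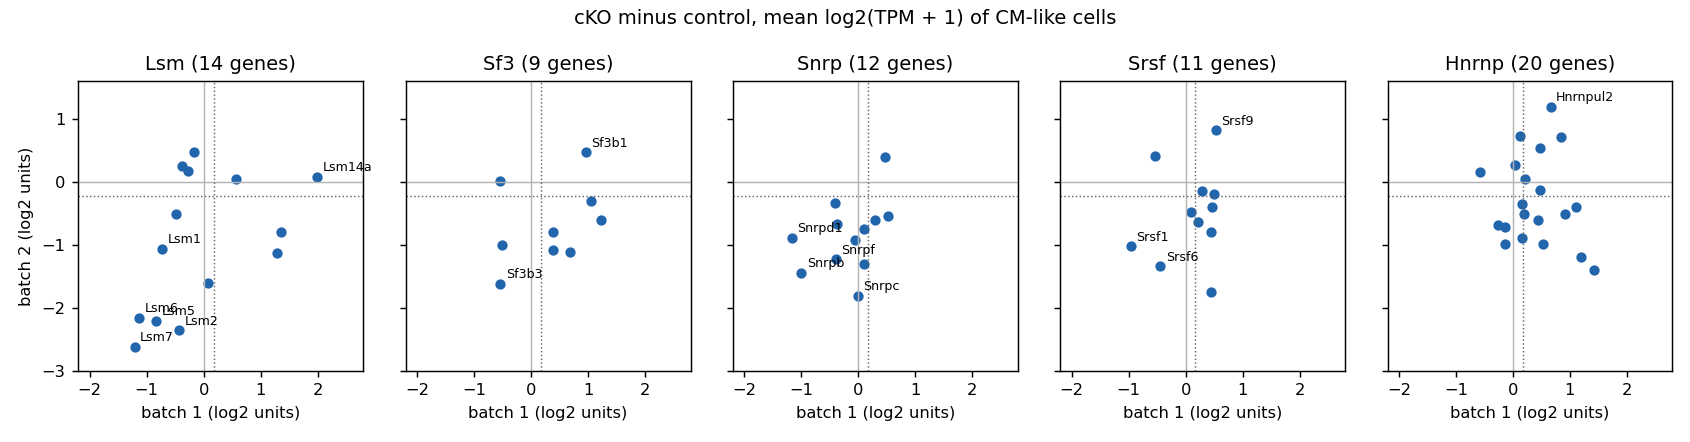
Difference of the mean log2(TPM + 1) between cKO and control CM-like cells for each of the 66 members, with batch 1 on the x axis and batch 2 on the y axis (log2 units), 1 panel per family. Solid lines mark 0 and dotted lines the median of all 15150 genes (0.17 in batch 1 and -0.22 in batch 2). Members with a pooled difference of at least 0.75 in size are named, and Lsm7, Lsm6, Lsm5 and Lsm2 lie at the lower left of the Lsm panel.

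Members differing by at least 1 log2 unit between genotypes, in the means of log2(TPM + 1) with both batches pooled, were Lsm and Snrp genes. Lower in cKO were 6 of 66 members, against 6.91% of all genes, and they were Lsm7, Lsm6, Lsm5, Lsm2, Snrpb and Snrpd1. The only member higher by that much was Lsm14a, against 6.6% of all genes. No Sf3, Srsf or Hnrnp gene passed 1 log2 unit in either direction in the pooled difference. Within single batches some did, among them Sf3b3 (-1.62 in batch 2), Srsf4 (-1.76 in batch 2) and Hnrnph1 (1.42 in batch 1 and -1.40 in batch 2). The count of lower members was 3 in batch 1 and 20 in batch 2, and the count of higher ones was 8 and 1. Of all genes 3.75% were lower and 12.8% higher in batch 1, and 22.3% lower and 4.89% higher in batch 2. With TPM scaled to the upper quartile of each cell, 13 members were lower and 0 higher, against 11.2% and 4.4% of all genes. With the 9 mitochondria-led cells counted as CM-like, 0 were lower and 9 higher, against 2.69% and 11.1%. Without the 3 control cells that carried epicardial or erythroid markers, 8 were lower and 1 higher, against 5.97% and 7.84%.

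The direction in both batches was then compared. Of all genes 26% were lower in cKO in both batches, and 20 of the 66 members were, a share of 30.3%. That count was 9 with the mitochondria-led cells (18.3% of all genes), 35 with scaling to the upper quartile (32.4%), 40 when cells were clustered on variable genes (31.6%) and 19 without the 3 control cells with other markers (24.1%). By family the 20 were 7 of 12 Snrp genes and 6 of 14 Lsm genes, but 2 of 9 Sf3, 2 of 11 Srsf and 3 of 20 Hnrnp genes. Of the 7 Snrp genes, Snrpc (-0.01) and Snrpg (-0.06) were close to 0 in batch 1. Higher in both batches were 28.6% of all genes and 11 of 66 members, of which 6 were Hnrnp genes. The other 35 members had opposite signs in the 2 batches, as did 6887 of all 15150 genes. Because the median of all genes itself moved from 0.17 in batch 1 to -0.22 in batch 2, members were also placed against that median, a choice made after the values were seen. Below it in both batches were 28.1% of all genes and 26 members, namely 9 Snrp, 7 Lsm, 5 Hnrnp, 3 Srsf and 2 Sf3 genes.

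The family medians of the differences were -0.43 for Lsm (batch 1 -0.33, batch 2 -0.93) and -0.52 for Snrp (batch 1 -0.03, batch 2 -0.81). They were -0.10 for Sf3, -0.12 for Srsf and 0.15 for Hnrnp (-0.24 with scaling to the upper quartile), and the median of all genes was 0.03. Sf3, Srsf and Hnrnp had a positive median in batch 1 (0.38, 0.29 and 0.32) and a negative one in batch 2 (-0.79, -0.48 and -0.46). Lsm and Snrp medians were thus negative in both batches, whereas those of the other 3 families had opposite signs. When the 9 mitochondria-led cells were counted as CM-like, as happened with 4 clusters, the Lsm and Snrp medians became 0.05 and 0.27, with a median of all genes of 0.14. Without the 3 control cells with other markers they were -0.37 and -0.46, with 0.07 for all genes.

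The U6 ring held the lowest differences of the 5 families. Lsm7 had a TPM of 20 to 1297 in the 29 control CM-like cells with a median of 303.9, and of 0 to 1331 in the 67 cKO cells with a median of 192.1. Its mean log2(TPM + 1) was 8.32 ± 1.00 (SD, n = 29 cells) in control and 6.40 ± 3.15 (SD, n = 67 cells) in cKO, a difference of -1.92. The ranges overlapped almost entirely, and the wider spread in cKO came with cells at 0. Lsm7 was detected in 29 of 29 control cells but in 55 of 67 cKO cells (82.1%, exact Clopper-Pearson 95% interval 70.8 to 90.4%, which covers counting error only). The difference held its sign in batch 1 (-1.21) and batch 2 (-2.62).

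Lsm6 had medians of 271 TPM in control and 116 in cKO cells of batch 1, and 192 and 83.7 in batch 2. The mean TPM over both batches was 2.20-fold higher in control. For Lsm5 the medians were 266 and 134 TPM in batch 1 and 215 and 114 in batch 2, and its lowest control cell had 70.7 TPM while it was detected in 60 of 67 cKO cells. Both genes therefore differed at the median as well as in the number of cells at 0. Lsm2 had batch 1 medians of 231 and 198 TPM and batch 2 medians of 270 and 93.4, with differences of -0.43 and -2.35. The ring was not uniform. Lsm4 was higher in cKO in batch 1 (1.36) and lower in batch 2 (-0.79), and so was Lsm8 (1.29 and -1.14). Lsm3 differed by -0.38 and 0.25. Over the 7 subunits the median was -1.30, with 4 lower in both batches.

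Outside the U6 ring, Lsm1, the subunit of the decay ring, was lower in both batches (-0.73 and -1.06), as was Lsm10 of the U7 particle (-0.48 and -0.51). Lsm14a and Lsm14b, which act in the control of cytoplasmic mRNA, went the other way in the mean log2(TPM + 1). Lsm14a had a pooled median of 2.578 TPM in control and 16.38 in cKO CM-like cells. Its difference of 1.12 came from batch 1 (1.99) with little in batch 2 (0.08). The medians in control and cKO were 0.14 and 28.7 TPM in batch 1, but 4.21 and 2.49 in batch 2. Lsm14b differed by 0.57 in batch 1 and 0.05 in batch 2. It had medians of 0.56 and 1.55 TPM in batch 1, but 0.83 and 0.51 in batch 2. Lsmem1 was listed at 0 in most cells of both genotypes and differed by 0.03.

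The 7 subunits of the Sm ring had a median difference of -0.56, and 5 of them were lower in cKO in both batches. Snrpb, which encodes the SmB proteins, had medians of 610 TPM in control and 364 in cKO cells of batch 1, and 687 and 407 in batch 2. The lowest control cell had 233 TPM in batch 1 and 188 TPM in batch 2, while cKO cells reached down to 5.21 and 1.12 TPM. Its mean log2(TPM + 1) was 9.09 ± 0.64 (SD, n = 29 cells) in control and 7.91 ± 1.96 (SD, n = 67 cells) in cKO, and its mean TPM was 1.59-fold higher in control. Snrpd1 behaved alike, with medians of 397 and 199 TPM in batch 1 and 307 and 201 in batch 2, and a pooled difference of -1.08. Snrpf (-0.81), Snrpd2 (-0.54) and Snrpg (-0.47) were lower in both batches by smaller amounts in the mean log2(TPM + 1). Snrpg differed by only -0.06 in batch 1. The batch 1 medians of Snrpf had the opposite order, 147 TPM in control and 154 in cKO. Snrpe differed by 0.09 in batch 1 and -1.31 in batch 2, and Snrpd3 by 0.53 and -0.55.

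The proteins particular to U1 and U2 were less regular. Snrpa, the U1 A protein, differed by 0.30 in batch 1 and -0.60 in batch 2. Snrpc, the U1 C protein, was level in batch 1 (-0.01) and lower in batch 2 (-1.81). Of the U2 proteins, Snrpa1 was lower in both (-0.38 and -0.67), whereas Snrpb2 differed by 0.10 and -0.74. Snrpn was the only Snrp gene higher in both batches (0.47 and 0.40), at medians of 0 TPM in control and 0.14 TPM in cKO cells.

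**Figure D2:**
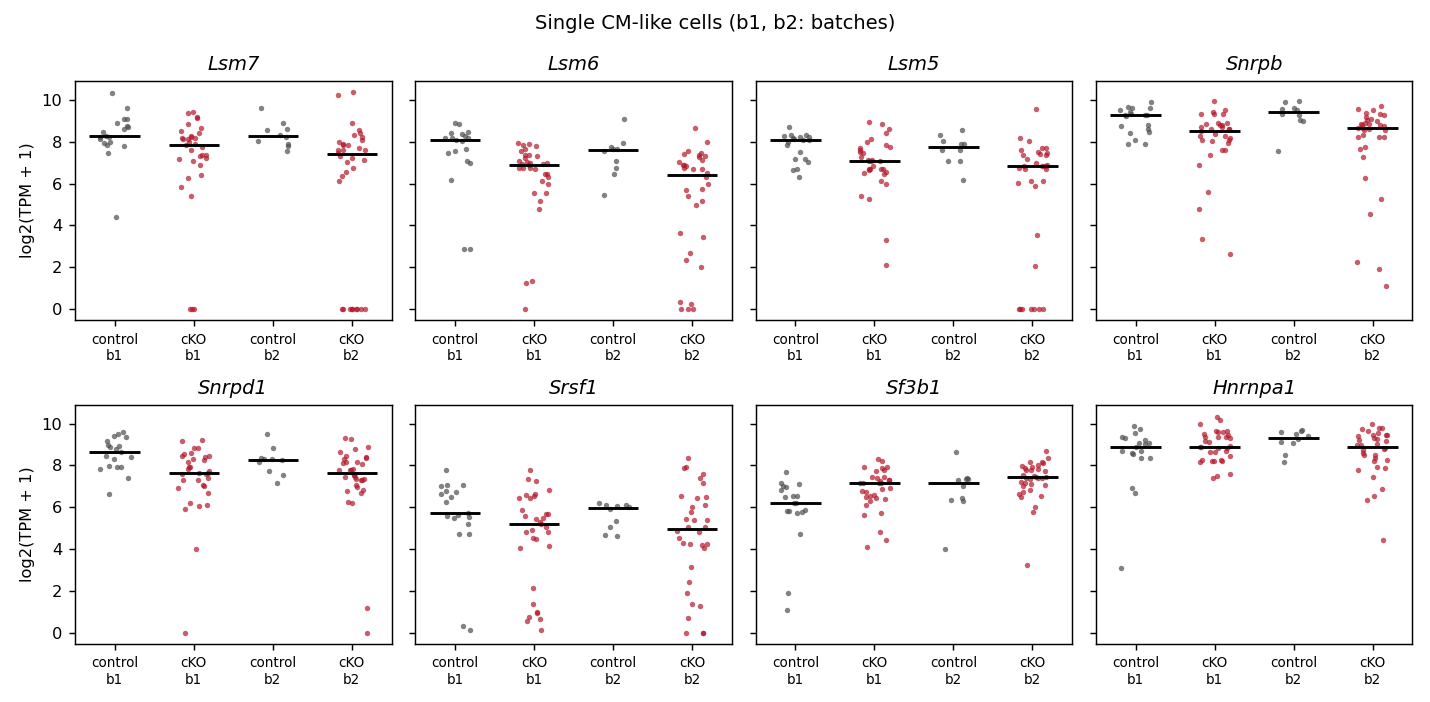
The log2(TPM + 1) of 8 members in single CM-like cells, by genotype and batch (b1, batch 1; b2, batch 2); each point is a cell and each bar the median. For Lsm7, Lsm6, Lsm5, Snrpb and Snrpd1 the cKO median lies below the control median in both batches, for Sf3b1 above it in both, and cells at 0 are seen for Lsm7 only in cKO.

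With both batches pooled, the share of a cell's summed TPM that a family took differed most for Lsm and Snrp. This measure gives less weight to cells at 0. It uses the same TPM values and rests mainly on the most abundant members. In control CM-like cells Lsm7, Lsm2 and Lsm3 held 22.3%, 15.5% and 13.8% of the summed mean TPM of Lsm. Snrpe, Snrpb and Snrpd2 held 24.4%, 15.9% and 12.8% of that of Snrp. The Snrp genes together took a median of 0.375% of TPM in control CM-like cells (range 0.110 to 0.570%) and 0.253% in cKO (0.0874 to 0.515%). Within batch 1 the medians were 0.380% and 0.274%, and within batch 2 they were 0.367% and 0.236%. The cells of the 2 genotypes overlapped, and the upper quartile of cKO cells (0.304%) lay below the lower quartile of control cells (0.339%). The Lsm share was 0.178% in control and 0.117% in cKO, with 0.188% and 0.136% in batch 1 and 0.167% and 0.109% in batch 2. The other families differed less. Hnrnp genes took 0.313% and 0.320%, Srsf genes 0.156% and 0.136%, and Sf3 genes 0.0689% and 0.0659%. The Srsf share, too, was lower in cKO in both batches, at 0.150% and 0.140% in batch 1 and 0.167% and 0.129% in batch 2. All 66 members together took 1.13% in control and 0.925% in cKO.

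**Figure D3:**
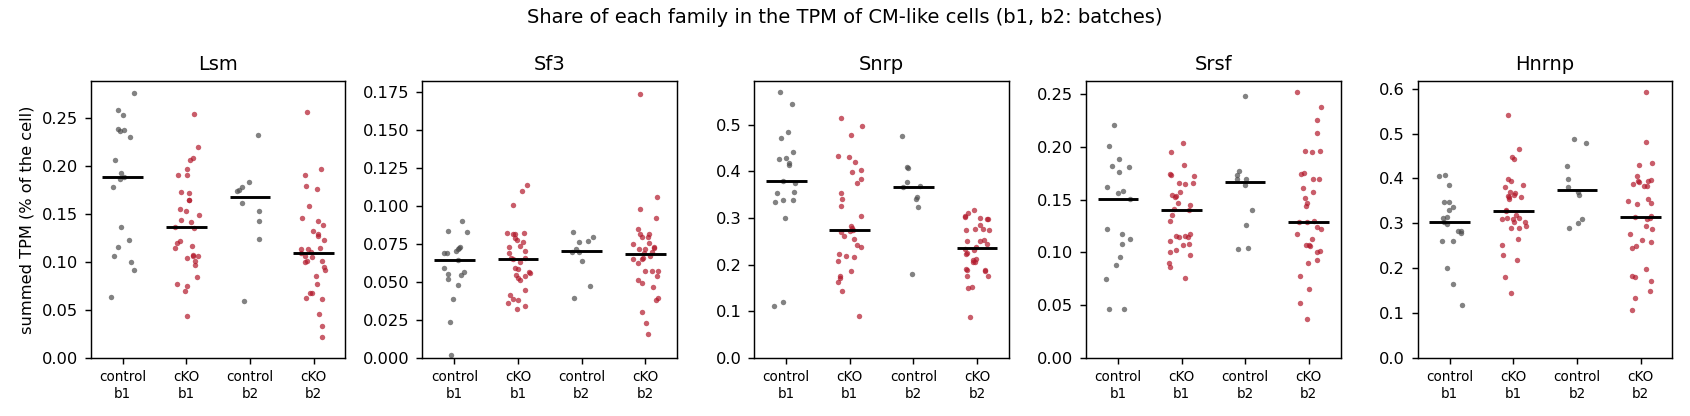
Summed TPM of each family as a percentage of the cell's total in CM-like cells, by genotype and batch (b1, batch 1; b2, batch 2); each point is a cell, each bar the median, and each panel has its own y axis from 0. The medians of Lsm, Snrp and Srsf are lower in cKO in both batches. Those of Sf3 and Hnrnp are higher in cKO in batch 1 and lower in batch 2.

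Coding length moved with these differences. The median coding length was 388.5 nt for Lsm and 462 nt for Snrp, against 786 nt for Srsf, 1303.5 nt for Hnrnp and 1503 nt for Sf3. Among all tested genes of at most 450 nt, 46.7% were lower in cKO in both batches, and their median difference was -0.29. The 18 members of that length had a median of -0.55, and 10 of them (55.6%) were lower in both. Between 450 and 1500 nt, 29.9% of all genes were lower in both against 7 of 35 members (20%), and above 1500 nt 20.5% against 3 of 13 members. Ribosomal protein genes, which are also short, took a median of 9.74% of TPM in control and 6.38% in cKO CM-like cells, and mitochondrial transcripts 6.30% and 3.00%. The part of length in the family differences was not tested.

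Of the branch site complexes, SF3A had a median difference of 0.01 over 3 genes and SF3B of -0.20 over 6. Sf3b1, the large scaffold of SF3B, had medians of 73.5 TPM in control and 140 in cKO cells of batch 1, and 142 and 173 in batch 2. Its mean TPM was 1.54-fold higher in cKO, and its differences were 0.96 and 0.47. The control median of batch 2 was thus close to the cKO median of batch 1. Sf3b3, another large subunit of the same complex, went the other way (-0.54 and -1.62), with medians of 40.21 TPM in control and 22.26 in cKO. Sf3a1 was lower in both batches (-0.52 and -1.01). Sf3a3 differed by 0.69 in batch 1 and -1.11 in batch 2. Opposite signs in the batches were seen in 6 of the 9 Sf3 genes, against 6887 of all 15150 genes.

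Among SR proteins, Srsf1 and Srsf6 were lower in cKO in both batches. Srsf1, the founding member of the family, had medians of 52.2 TPM in control and 36.2 in cKO cells of batch 1, and 62.4 and 30.3 in batch 2. Its mean log2(TPM + 1) was 5.55 ± 1.68 (SD, n = 29 cells) and 4.58 ± 2.33 (SD, n = 67 cells), a difference of -0.97, whereas its mean TPM was only 1.17-fold higher in control. The mean of log values gives more weight to cells at low values than the mean TPM does. Srsf6 differed by -0.44 and -1.34. Srsf9 was higher in both (0.53 and 0.82) at low medians of 0.80 TPM in control and 0.92 in cKO, and its highest cKO cell reached 775.3 TPM. Srsf2 and Srsf3, both abundant, differed by 0.22 and 0.05, with opposite signs in the 2 batches.

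The hnRNPs had the narrowest range of pooled differences, from -0.46 to 0.83. Hnrnpa1, one of the most abundant, had medians of 474 and 476 TPM in batch 1 and 640 and 475 in batch 2, with a pooled difference of 0.02. Hnrnpk differed by 0.15 and -0.89. The 3 members lower in both batches were Hnrnpab (-0.46), Hnrnpa2b1 (-0.36) and Hnrnpl (-0.35), each by less than its SD across cells. Higher in both by the largest amounts were Hnrnpa3 (0.72) and Hnrnpul2 (0.83). Hnrnpa3 had medians of 59.94 TPM in control and 93.64 in cKO, while Hnrnpul2 stayed below 1 TPM at the median in both. Hnrnph2, which lies on the X chromosome, differed by 0.48 and -0.14.

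The family means varied together from cell to cell. Pearson's r between the mean log2(TPM + 1) of any 2 families was 0.64 to 0.84 over the 29 control and 0.55 to 0.73 over the 67 cKO CM-like cells. Each point is 1 cell, and the families share its library and its number of detected genes. Within a genotype and batch, r between a family mean and the number of detected genes was 0.03 to 0.89 (10 to 34 cells), with the lowest value for Snrp in cKO cells of batch 1. From batch 1 to batch 2 the median Lsm gene differed by 0.06 in control and -0.76 in cKO CM-like cells, the median Sf3 gene by 0.95 and -0.32, and the median of all genes by 0.37 and -0.07.

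In control hearts the families also differed between cell classes. In endothelial-like cells Sf3, Srsf and Hnrnp genes were higher than in CM-like cells, with medians of 0.84, 0.93 and 0.72, against 0.26 for all genes. The Snrp median was 0.13 and the Lsm median -0.20. These 3 higher families kept a positive median in both batches (Sf3 1.36 and 0.14, Srsf 0.84 and 0.61, Hnrnp 0.99 and 0.46), whereas Snrp (0.50 and -0.06) and Lsm (0.02 and -0.74) did not keep one sign. Neither did the median of all genes (0.51 and -0.03), to which that of Snrp was close in both batches. The number of detected genes changed order here too. Its median was 10293 in endothelial-like and 8458 in CM-like cells of batch 1, and 8538 and 9679 in batch 2. The part of this in the class differences was not tested. Higher by at least 1 log2 unit were 15 of 66 members, close to the 21.4% of all genes, and lower by as much were 4, against 9.21%. All 4 lower ones were Lsm genes.

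Hnrnph1, which binds G-rich stretches, had the largest positive difference of any member in endothelial-like cells. It had a median of 164.1 TPM in control CM-like cells (0 to 360.5, n = 29) and 407.5 in endothelial-like cells (117 to 853.8, n = 22), a difference of 2.22 that was 2.76 in batch 1 and 0.85 in batch 2. Hnrnpdl, a paralog of Hnrnpd, differed by 1.54. Srsf9 followed Hnrnph1 at 2.00, with medians of 0.80 and 20.81 TPM, and Srsf2 differed by 1.08. Sf3b1 (1.5) and Sf3a1 (1.46) led their family, and no endothelial-like cell had less than 94 TPM of Sf3b1 while CM-like cells reached down to 1.15. Of the Snrp genes only Snrpb2 passed 1 log2 unit (1.28, and 1.16 and 1.25 by batch), and Snrpd3 came next (0.81). Snrpb and Snrpd1, the lowest Snrp genes in cKO, differed by 0.28 and -0.23.

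The lower members were Lsm10 (-2.50), Lsm7 (-1.39), Lsm1 (-1.33) and Lsm5 (-1.01). Lsm10 was detected in 23 of 29 CM-like and 6 of 22 endothelial-like cells, and differed by -0.44 and -3.15 in the 2 batches. Lsm7 was at 0 in some endothelial-like cells (detected in 18 of 22), but its median there, 346.1 TPM, was above the 303.9 TPM of CM-like cells, so its mean log2 and its median gave opposite orders. Lsm1 was lower in both batches (-1.84 and -0.90).

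In epicardial-mesenchymal-like cells the Srsf, Sf3 and Hnrnp genes were again the higher families. Their medians against CM-like cells were 0.78 for Srsf, 0.71 for Sf3, 0.67 for Hnrnp, and those of the others 0.36 for Snrp and 0.12 for Lsm (-0.13 and -0.21 with scaling to the upper quartile), with 0.25 for all genes. Both comparisons use the same 29 CM-like cells. Higher by at least 1 log2 unit were 11 members against 21% of all genes, and lower was 1, Lsm1 (-1.28), against 8.77%. Lsm14a was the highest (1.83), with medians of 2.578 and 31.37 TPM, and Hnrnph1 (1.68) and Srsf9 (1.56) followed. The Sf3, Srsf and Hnrnp medians were positive in both batches, although batch 1 held only 4 of these cells. Their median of detected genes was 9629.5 in batch 1 and 8655 in batch 2, against 8458 and 9679 in CM-like cells. As a share of TPM, Hnrnp genes took a median of 0.313% in CM-like, 0.539% in endothelial-like and 0.428% in epicardial-mesenchymal-like control cells. The Lsm share ran the other way, at 0.178%, 0.148% and 0.146%.

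**Figure D4:**
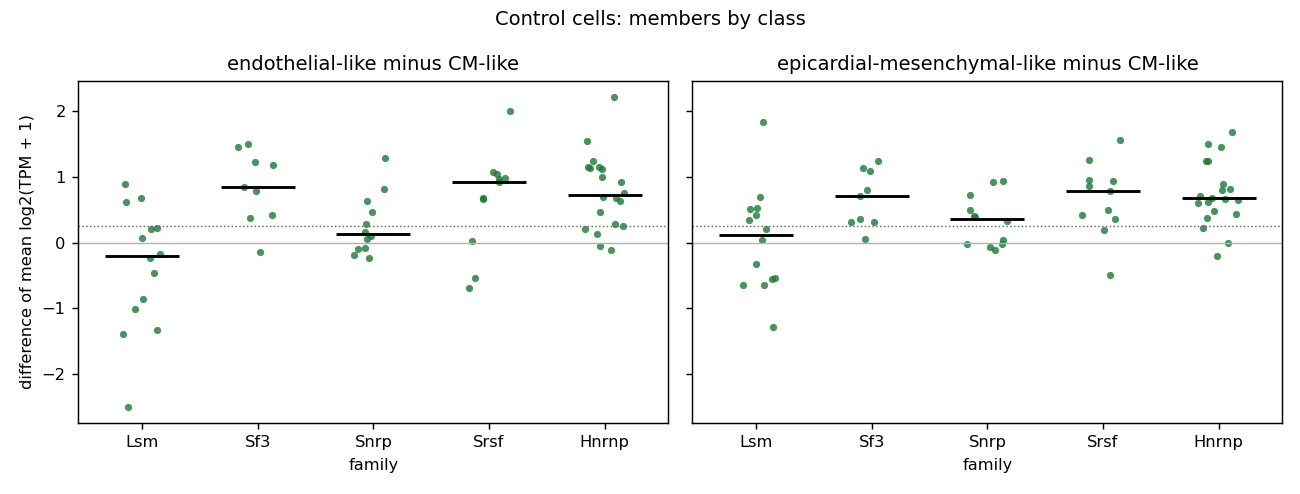
Difference of the mean log2(TPM + 1) from CM-like cells in control endothelial-like cells (left, 22 cells) and epicardial-mesenchymal-like cells (right, 13 cells) for each member, by family. Each point is a gene, bars are family medians and the dotted line is the median of all tested genes (0.26 and 0.25); the Sf3, Srsf and Hnrnp medians lie above it in both panels.

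The 3 erythroid-like cells had a median Snrp share of 0.348% and a median Hnrnp share of 0.204%. The 7 unnamed control cells had 0.0824% and 0.0312%, with a mitochondrial share of 54% at the median.

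Beyond the 5 families, 113 other genes of the splicing machinery in 5 lists were examined, and 109 passed the filter. In cKO CM-like cells, 13 of the 109 were lower and 9 higher by at least 1 log2 unit, against 6.91% and 6.6% of all genes. In both batches 37 were lower and 19 higher, against 26% and 28.6%. The snRNP assembly genes include those of the SMN complex and the methylosome, which act in loading Sm proteins onto snRNA, and also Coil, Tgs1, Phax and Snupn. They had a median of -0.72 (batch 1 0.00, batch 2 -1.30) with 8 of 16 lower in both batches. Wdr77, a methylosome subunit, was the lowest at -2.27 (-1.78 and -3.16). The others past 1 log2 unit were Gemin7 (-1.22), Strap (-1.20), Gemin4 (-1.06) and Tgs1 (-1.04), which were lower in both batches, and Gemin6 (-1.30), which was not (0.26 in batch 1). Gemin2 was the exception, at 1.01. These genes and those named next were chosen for their size of change.

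Other snRNP proteins had a median of -0.25 over 34 genes (batch 1 0.09, batch 2 -0.85). Phf5a, a small subunit of SF3B that the rule on symbols did not reach, was the lowest (-1.09 in batch 1 and -3.24 in batch 2). Ppih (-1.53) and Txnl4a (-1.38), small proteins of the U4/U6.U5 particle, U2af1 (-1.16), the small subunit that reads the 3' splice site, and Snrnp25 (-1.04), of the minor spliceosome, were lower in both batches too. Luc7l2 (1.32) and Prpf6 (1.12) were higher in both. The genes of the activated spliceosome and exon junction had a median of -0.16 over 22 (batch 1 0.09, batch 2 -0.61). None of them passed 1 log2 unit.

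SR kinases and SR-like factors had a median of 0.32 over 16 genes (batch 1 0.62, batch 2 -0.29) and none past 1 log2 unit. Of these 16, 10 had opposite signs in the batches, against 6887 of all 15150 genes. The other splicing regulators had a median of 0.33 over 21 genes (batch 1 0.71, batch 2 -0.19). Among them 6 were higher by at least 1 log2 unit, all in both batches. Ptbp1, the polypyrimidine tract-binding protein that represses many exons, differed by 2.87 (3.42 in batch 1 and 1.82 in batch 2), and its mean TPM was 4.01-fold higher in cKO. Rbfox2 (1.69), Celf2 (1.56), Ptbp3 (1.47), Qk (1.38) and Rbm24 (1.12), regulators of exon choice in muscle and other tissues, were the others. Rbm38 (-1.20) and Mbnl1 (-1.07) were lower in both batches. Nova2, Esrp1, Esrp2 and Rbfox1 did not pass the filter.

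**Figure D5:**
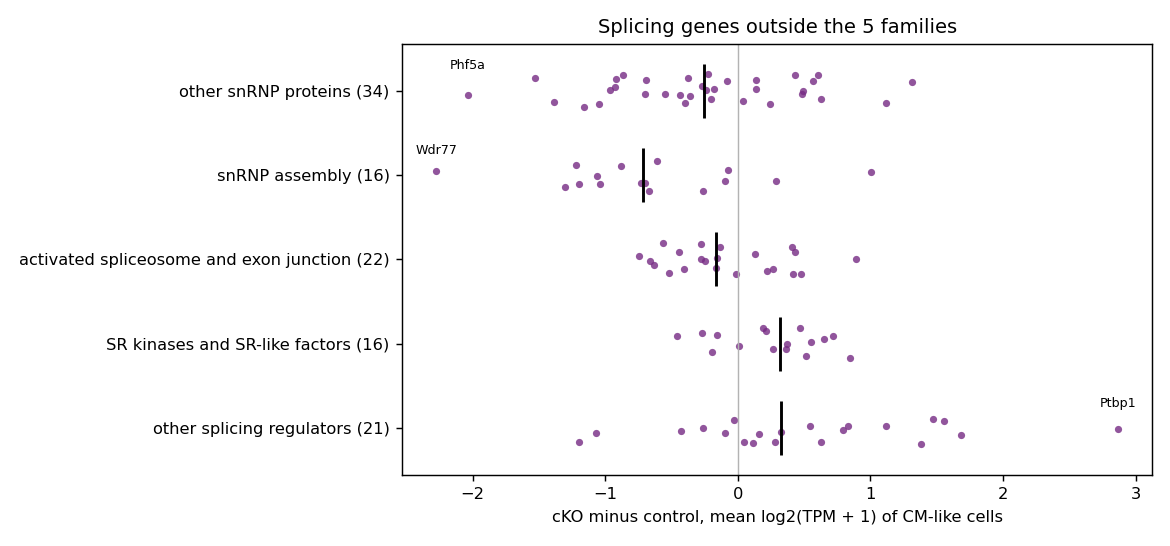
Difference of the mean log2(TPM + 1) between cKO and control CM-like cells for the 109 related splicing genes that passed the filter, 1 row per list. Each point is a gene and each bar the median of the list; snRNP assembly genes have the lowest median (-0.72), and Ptbp1 (2.87), Phf5a (-2.04) and Wdr77 (-2.27) are named.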

How the data were processed

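Single ventricular cells of E9.5 hearts were profiled by Smart-seq2. Per the labels and the study's methods, the authors quantified reads with Salmon against mm10 and deposited TPM, a measure of transcript abundance per length with a fixed sum per cell. The version of Salmon and the annotation release are not given in the sources used here. Cells with a low mapping rate, and those whose reporter RNA went against the genotype, were removed by the authors. The table had 143 columns matched by title to 170 labelled samples, and 27 samples were not analysed here. TPM summed to 996133 to 999999 per cell and keeps no depth.

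Members were found by symbol. The members and gene lists were chosen with earlier results of these data known. Cells were clustered by Ward linkage on z-scored log2(TPM + 1) of 55 markers into 5 clusters (Python 3.11.15, pandas 2.3.3, scipy 1.17.1). Each was named from its markers, and the epicardial cluster, which also held mesenchymal markers, was given both names. No doublet caller was run, since cells were picked by hand. Genes needed TPM above 0 in more than 10 of the cells compared. The measure was the difference of the mean log2(TPM + 1) with a pseudocount of 1, which understates changes at low levels, pooled and by batch. The study's methods give log2(TPM + 1). They rank cells as replicates, which was not done here. The number before the dash in a cell's title is shared by several cells and is not explained, so it was not used. The computation was tested on simulated data. Coding lengths came from GENCODE M21 and promoters from RefSeq (GRCm38.p6).

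Genes were named by a rule: in each family the 3 lowest and 2 highest among those with 1 sign in both batches, the 2 with the largest endothelial-like difference, and genes chosen by role. Others were named after their values were seen. Alternatives covered the pseudocount, ratios of mean TPM, filters, scaling, batches, the clustering and the range of detected genes.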

Additional observations from a re-analysis of the deposited data

How the results depend on the processing

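No paired analysis was possible because the labels do not say what the numbers in the cell titles stand for and no result comes from a test. Each genotype was 1 sample, so no sample could be left out. Over 18 settings for the genotypes, the reported one included, the Lsm median ran from -0.93 to 0.05 and the Snrp median from -0.90 to 0.27, both below 0 in 17. With 4 clusters, which added the mitochondria-led cells (69 cKO and 36 control cells), the medians became 0.052 for Lsm, 0.27 for Snrp, 0.51 for Sf3, 0.46 for Srsf and 0.39 for all members, with 0 members lower and 9 higher by 1 log2 unit (2.69% and 11.1% of all genes) and 9 lower in both batches (18.3%).

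In batch 1 alone the medians were 0.38 for Sf3, 0.29 for Srsf and 0.16 for all members (0.17 for all genes), with 3 members lower and 8 higher by 1 log2 unit (3.75% and 12.8% of all genes), and Gemin6 was at 0.26. In batch 2 alone the Hnrnp median was -0.46, with 20 members lower (22.3%). Cells of 7000 to 11000 detected genes gave 0.10 for Sf3 and 0.0045 for Srsf. Scaling to the upper quartile gave -0.24 for Hnrnp, 13 members lower (11.2%), 0 higher (4.4%) and 35 lower in both batches (32.4%). Clusters from variable genes gave -0.11 for Hnrnp and 40 members lower in both (31.6%). A pseudocount of 0.1 gave 11 members lower and 2 higher (13.9% and 12.3%), and 1 of 10 gave 0 higher (1.78%). The ratio of mean TPM gave 1 lower and 3 higher (5.5% and 15.3%), and medians over cells, chosen after seeing the data, gave 3 lower (10.4%). The cause of these changes was not tested, except that the 4-cluster setting differs by the added cells.

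Against control CM-like cells, the Sf3, Srsf and Hnrnp medians stayed above 0 under all 11 settings, the reported one included, in both other classes. In endothelial-like cells the Snrp median became -0.018 with the ratio of mean TPM, -0.056 in batch 2, -0.30 with the upper quartile and -0.13 less the median of all genes, a setting also chosen after seeing the data. There the Lsm median was 0.019 in batch 1, and Hnrnph3 was at -0.023 in batch 2. In epicardial-mesenchymal-like cells the Lsm median became -0.24 with the ratio, -0.32 in batch 2, -0.21 with the upper quartile and -0.13 less the median of all genes, and the Snrp median -0.13 with the upper quartile. TPM keeps no depth, so how far sampling limits the low values is unknown.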
